A study of Mus musculus with 4 samples.

Results

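The Dlk1-Dio3 region is an imprinted stretch of mouse chromosome 12 that carries a dense group of miRNA genes, and the 5p arms of these miRNAs are described here. Members were chosen by name from a list of 45 mature 5p arms of the region. Of these, 44 had a row in the counts, out of 1059 mature miRNA names in all, and mmu-miR-1193-5p was not analysed here. Where a mature name can have rows for several precursors, the row with the highest total was kept, although each of the 44 had a single row.

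Small RNA of the rostral-most telencephalic primordium was sequenced from mouse embryos at E11.5, to ask which miRNAs change when Dicer is lost early in the telencephalon. Rx-Dicer mutants carried Rx-Cre and floxed Dicer alleles (RxCre-DicerF/F), and 2 libraries were made from them. The 2 control libraries have the genotype WT in their sample labels, whereas the dissection protocol names DicerF/F embryos. The Cre line (Rx3-Cre) was kept on a CD1 background and the floxed Dicer line (Dicer1tm1Bdh/J) on C57BL/6. Cre is driven by regulatory sequences of Rx (Rax), so Dicer is deleted only in cells of the Rx lineage, and cells outside that lineage in the dissected tissue keep it. The number of embryos behind each library is not given in the sources used here. P-values therefore measure only the spread between these libraries, which may be technical.

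The Dlk1-Dio3 miRNAs are made from the maternally inherited chromosome, together with the non-coding RNAs Meg3, Rian and Mirg, whereas the protein-coding genes Dlk1, Rtl1 and Dio3 are expressed from the paternal one. Dicer cuts each hairpin into a pair of strands, the 5p and 3p arms, and usually one of them is kept as the mature miRNA, which finds its targets through its seed. The group is known for its expression in embryo, placenta and brain. Counts of mature miRNAs do not separate the parental alleles, so imprinting itself was not measured.

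The libraries differed in depth. Rx-Dicer libraries 1 and 2 held 651031 and 516517 mature miRNA counts, and controls 1 and 2 held 1299067 and 1133553, so each mutant library was shallower than each control. miR-9-5p, an abundant miRNA of forebrain progenitors, held 28.2% and 29.4% of counts in the mutants and 31.5% and 42.6% in the controls. It was the most abundant of the forebrain progenitor markers. The paper counts miR-9 among the highest miRNAs of the developing vertebrate brain. Its level therefore cannot tell the telencephalon from other brain regions, and the telencephalic label was not checked. The mRNA of Dicer is not measured in small RNA libraries, so the genotypes could not be checked on the targeted gene. Levels are given below as scaled CPM, which are counts relative to the library total (CPM) after its correction by edgeR's TMM factors (1.17 and 1.14 in mutants, 0.926 and 0.814 in controls). Such levels show each miRNA against the rest of its library, and a loss common to all miRNAs would be invisible. In these bulk samples, fewer cells of a type and less RNA per cell cannot be told apart.

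The hairpins of all 45 listed miRNAs lie on the plus strand of chromosome 12 (GRCm38, GENCODE annotation), between Dlk1 and Dio3, and the region label thus holds for the positions. They form a proximal group of 11 between 109563692 and 109618336 and a distal group of 34 between 109709060 and 109743795, called here the Mirg group after the non-coding RNA that covers its far end. In the proximal group, Mir770 lies in an exon of Meg3, Mir370 in an intron of Rian, and Mir431, Mir433, Mir127 and Mir136 lie opposite an exon of Rtl1, the retrotransposon-derived gene whose mRNA they can pair with in full. In the Mirg group, 8 hairpins lie in introns and 4 in exons of Mirg. Over both groups, 27 of the 45 hairpins have no annotated host gene.

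Along these hairpins the levels differed by orders of magnitude. Of the 30 members that reached the minimum of 10 counts in at least 2 libraries, 6 had a mean above 1000 scaled CPM and 18 a mean above 100. These 6 were mmu-miR-541-5p, mmu-miR-379-5p, mmu-miR-134-5p, mmu-miR-382-5p and mmu-miR-411-5p of the Mirg group and mmu-miR-337-5p of the proximal group. Together they held 92.3% and 91.5% of the counts of the 44 members in the mutants and 92.6% and 91.7% in the controls. High and low members lay side by side. Mir541 lies between Mir377 and Mir409, and miR-541-5p had 732 and 527 times the counts of miR-377-5p in the mutants and 1081 and 526 times in the controls. Against miR-409-5p the ratio was 42.5 and 41.3 in the mutants and 56.8 and 37.4 in the controls. In both ratios control library 1 was the highest of the 4, and the other 3 libraries lay closer together.

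**Figure D1:**
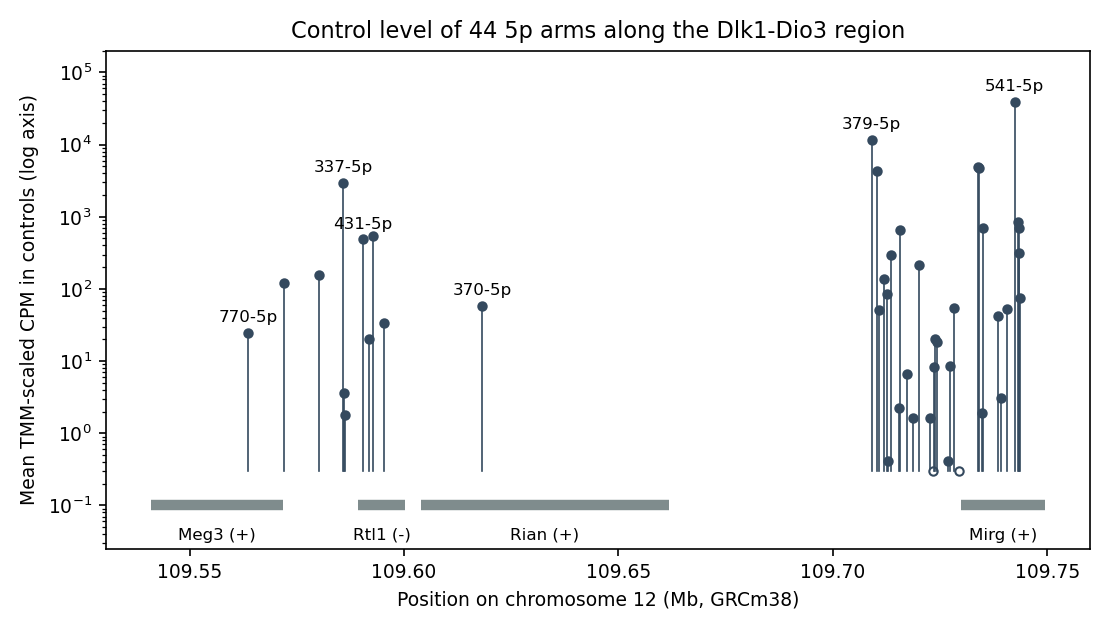
Mean TMM-scaled CPM in the 2 control libraries (log axis) of the 44 5p arms, drawn at the position of each hairpin on chromosome 12 in Mb, with open points for the 2 members at 0 and grey bars for annotated genes with their strand. The highest stem, miR-541-5p, stands in the Mirg group, and miR-337-5p is the highest in the proximal group.

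The mature sequences of these 6 members are shown because they supply most of the counts of the listed 5p arms. They are from RefSeq (GRCm38.p6), in which 44 of the 45 names were matched (all but miR-485-5p). Capitals mark the seed, bases 2 to 8.
mmu-miR-541-5p: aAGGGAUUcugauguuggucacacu
mmu-miR-379-5p: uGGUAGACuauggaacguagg
mmu-miR-134-5p: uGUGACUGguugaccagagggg
mmu-miR-382-5p: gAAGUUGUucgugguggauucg
mmu-miR-411-5p: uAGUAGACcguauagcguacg
mmu-miR-337-5p: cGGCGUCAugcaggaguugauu

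The 44 sequences were 19 to 26 bases long (median 22), with a GC content of 31.8% to 72.7% (median 48.9%), and held 41 different seeds. Only 3 seeds were shared, each by 2 of the listed 5p arms and by no other mature miRNA of the RefSeq table. miR-379-5p and miR-1193-5p share GGUAGAC, miR-494-5p and miR-410-5p share GGUUGUC, and miR-376c-5p and miR-376b-5p share UGGAUAU. The last pair is shown because it differs at 1 of 22 bases, so that a read can fit both.
mmu-miR-376c-5p: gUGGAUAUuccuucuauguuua
mmu-miR-376b-5p: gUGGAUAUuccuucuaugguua
Their counts were low, with 3 and 0 in the mutants and 0 and 3 in the controls for miR-376c-5p, and 10 and 4 against 8 and 9 for miR-376b-5p. miR-379-5p and miR-411-5p, from hairpins next to each other, differ at 7 of 21 bases and have different seeds.

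The motif GGUUG was looked for on the mature strand after the sequences had been read. It occurred in 8 of the 44 listed 5p arms with a sequence (18.2%). These 44 include miR-1193-5p but not miR-485-5p. The shares were 2.69% of the 1635 other mature miRNAs in the table and 4.13% of the 653 others named as 5p arms. The motif lies inside the seed in 6 of the 8. These are miR-380-5p, miR-758-5p, miR-494-5p, miR-496a-5p, miR-377-5p and miR-410-5p, while miR-134-5p and miR-381-5p hold it elsewhere. Of the 8, 4 reached the count minimum. The match is a description of letters, and the miRNAs of the region are not independent sequences.

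As a share of all mature miRNA counts, the members took 10.1% (10.05 to 10.19, 95% Wilson interval) in mutant library 1 and 8.66% (8.58 to 8.74) in mutant library 2. Control library 1 had 7.04% (6.997 to 7.085) and control library 2 had 5.79% (5.75 to 5.83). Both mutant libraries were above both controls, and the libraries of a genotype also differed from each other by more than counting error. PCR copies were not marked by molecular identifiers, so these intervals cover counting error only. The means were 9.39% ± 1.03 and 6.42% ± 0.884 (SD, n = 2 libraries each), a difference of 2.97 percentage points. The total holds only mature names with a row in the counts. Of 56 listed 3p arms of the region, 2 had such a row, so these are not shares of every mature miRNA in the tissue. A share also moves with the other miRNAs of the total. With counts summed over all precursor rows of a name, which enlarges the total but not the members, the means were 5.36% in mutants and 3.35% in controls. Without miR-9-5p in the total, the mutants had a mean of 13.2% ± 1.28 and the controls one of 10.2% ± 0.127 (SD, n = 2 each). In scaled CPM, the sum over members was 86601 and 76276 in the mutants and 76016 and 71173 in the controls. Mutant library 2 and control library 1 were nearly equal, and the ratio of the means was 1.11. Without miR-541-5p the sums were 44289 and 38569 in the mutants and 31978 and 36954 in the controls, a ratio of 1.20.

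The proximal group took 0.592% and 0.508% of counts in the mutants and 0.434% and 0.340% in the controls. Its part of the members' counts was nearly the same in each library, at 5.85% and 5.86% in the mutants and 6.17% and 5.86% in the controls. Of the members' counts, miR-541-5p held 48.9% and 49.4% in the mutants and 57.9% and 48.1% in the controls. Control library 1 stood apart from the other 3 libraries here, and control library 2 lay close to the mutants. The opposite held for miR-379-5p, with 18.9% and 17.8% in the mutants and 13.5% and 18.5% in the controls, and for miR-411-5p, with 7.01% and 5.89% against 4.37% and 7.49%. For both, control library 1 was the lowest. In scaled CPM, the ratio of control library 1 to control library 2 ranged from 0.523 to 1.87 over the 30 tested members. It was above 1 for 10 of them, and for 137 of all 274 miRNAs tested.

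Between Rx-Dicer mutants and controls, 0 of the 30 tested members differed at an adjusted p under 0.05 in either direction (edgeR's quasi-likelihood test, Benjamini-Hochberg adjustment over 274 miRNAs). Among all 274 miRNAs, 7 (2.55%) passed as lower in mutants and 0 (0.0%) as higher. At an unadjusted p under 0.05 the members also gave 0 and 0, against 23 lower (8.39%) and 3 higher (1.09%) among all miRNAs. This 0 depended on the setting. With DESeq2's size factors in edgeR, 1 member (miR-433-5p) was higher at that level, against 6 higher and 21 lower among all miRNAs. With TMM factors computed without the members, 1 member (miR-433-5p) was higher, against 9 higher and 20 lower among all. With no count minimum, 1 member (miR-543-5p) was higher, against 7 higher and 45 lower among 634 miRNAs. DESeq2's Wald test called 11 miRNAs lower and 0 higher. It gave an adjusted p for only 20 of the 30 members, of which 0 passed, and none for the other 10, miR-433-5p among them. Log2 fold changes had a median of 0.21 over the tested members and of 0.04 over all tested miRNAs. They were positive for 27 of the 30 members and for 149 of the 274 miRNAs. The 3 members below 0 were miR-770-5p, miR-329-5p and miR-412-5p, all at about −0.01. They were above 0 with DESeq2's size factors, with total counts only and with TMM factors computed without the members. With no count minimum, 18 members were positive and 12 negative, and 42.7% of all miRNAs were positive. With 1 library left out, 22 to 26 members were positive, against 48.9% to 52.6% of all miRNAs. Scaling by total counts only moved the median of all miRNAs to 0.44 and that of the members to 0.63. It then left 9 members higher and 0 lower at an unadjusted p under 0.05, and 51 higher and 10 lower among all miRNAs, with 0 members passing at an adjusted p.

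Both mutant libraries were above both controls for 9 of the 30 members, against 49 of the 274 miRNAs (17.9%), and below both controls for 0 members, against 67 miRNAs (24.5%). The 9 were miR-379-5p, miR-134-5p, miR-382-5p and miR-431-5p among the 12 most abundant members, and miR-433-5p, miR-667-5p, miR-380-5p, miR-493-5p and miR-370-5p among the other 18. None of these differences passed the test. By position, the median log2 fold change was 0.19 for the 9 tested members of the proximal group and 0.24 for the 21 of the Mirg group.

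Ranks are given among the 1059 mature names with a row in the counts. miR-541-5p had rank 3 in both mutants and in control library 1, and rank 6 in control library 2. Its scaled CPM were 42312 and 37708 in the mutants and 44038 and 34219 in the controls. The highest and the lowest value both came from controls, with the mutants between them. The means were 40010 ± 3256 and 39128 ± 6943 (SD, n = 2 libraries each). The log2 fold change was 0.03, with a standard error (SE) of 0.25 and a 95% interval from −0.55 to 0.62 (adjusted p = 0.990 by edgeR).

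miR-379-5p, the first miRNA of the Mirg group along the chromosome, had scaled CPM of 16339 and 13542 in the mutants and 10269 and 13181 in the controls. The mutants were above the controls, but mutant library 2 and control library 2 were close. Its log2 fold change was 0.35 (SE 0.26, 95% interval −0.26 to 0.96, adjusted p = 0.659 by edgeR). For miR-411-5p the values were 6074 and 4490 in the mutants and 3318 and 5331 in the controls. Here the groups overlapped, since control library 2 lay between the mutants, and the log2 fold change was 0.29 (SE 0.32). It rested on single libraries, with 0.054 without mutant library 1, 0.49 without mutant library 2, 0.025 without control library 1 and 0.67 without control library 2.

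miR-134-5p is known for its action in neuronal dendrites, where it represses Limk1. It had scaled CPM of 6329 and 5847 in the mutants and 4858 and 4741 in the controls. The replicates of each genotype were close and the groups did not overlap. The means were 6088 ± 341 and 4800 ± 82.9 (SD, n = 2 libraries each), and the log2 fold change was 0.34 (SE 0.24, 95% interval −0.22 to 0.90, adjusted p = 0.638 by edgeR). miR-382-5p, whose hairpin is the neighbour of Mir134, had 5565 and 5397 in the mutants and 4543 and 5250 in the controls. Its groups did not overlap either, but control library 2 lay close to the mutants, and the log2 fold change was 0.16 (SE 0.24).

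In the proximal group, miR-337-5p had scaled CPM of 3289 and 2819 in the mutants and 3401 and 2562 in the controls, with the mutants between the controls and a log2 fold change of 0.03 (SE 0.27). miR-431-5p had 639 and 616 in the mutants and 374 and 597 in the controls. The low value of control library 1 set it apart, while the other 3 libraries were nearly equal. Its log2 fold change was 0.37 (SE 0.28), but 0.11 without control library 1 and 0.75 without control library 2. miR-127-5p, which like miR-431-5p lies opposite Rtl1, had 613 and 542 in the mutants and 512 and 572 in the controls. These groups overlapped, and the log2 fold change was 0.09 (SE 0.23). Of the 30 members it had the smallest standard error.

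The last 4 of the 12 most abundant members belong to the Mirg group. miR-409-5p had scaled CPM of 996 and 914 in the mutants and 775 and 914 in the controls, so that mutant library 2 and control library 2 were equal as printed. miR-485-5p had 744 and 808 in the mutants and 841 and 575 in the controls, and both mutants lay between the controls. miR-679-5p had 840 and 749 in the mutants and 758 and 545 in the controls, and miR-369-5p had 820 and 658 against 583 and 797. The groups overlapped for both. Their log2 fold changes were 0.18, 0.13, 0.28 and 0.10 in this order, with standard errors of 0.24 to 0.27. That of miR-679-5p was 0.58 without control library 1 and 0.068 without control library 2. Over the 12 most abundant members, the log2 fold change ran from 0.03 to 0.37 and the lowest adjusted p was 0.638 in edgeR's quasi-likelihood test.

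**Figure D2:**
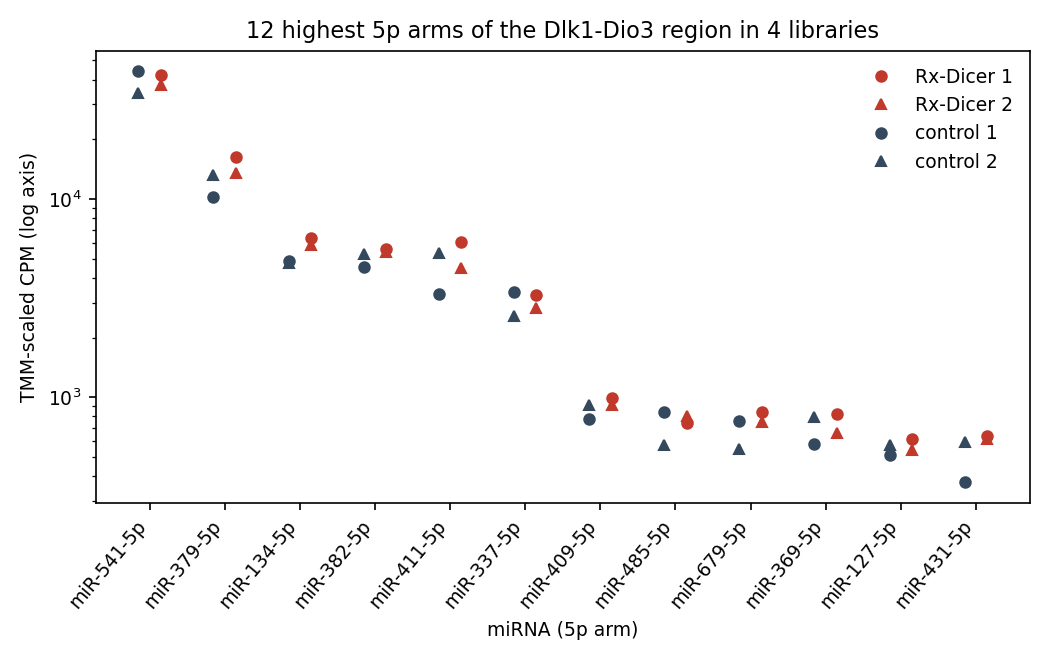
TMM-scaled CPM (log axis) of the 12 most abundant 5p arms in each of the 4 libraries, with red for Rx-Dicer, dark blue for control, circles for replicate 1 and triangles for replicate 2. The mutants lie above both controls for miR-379-5p, miR-134-5p, miR-382-5p and miR-431-5p, and overlap with them for the other 8.

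The other 18 tested members had means of 18.8 to 312 scaled CPM. Their log2 fold changes ran from −0.01 to 0.97, with standard errors of 0.26 to 0.49, and their adjusted p from 0.482 to 0.990 in edgeR's quasi-likelihood test. The following 2 were chosen after their values were seen. miR-433-5p, another miRNA opposite Rtl1, had the highest fold change of the tested members. Its scaled CPM were 31.5 and 47.7 in the mutants and 17.5 and 22.8 in the controls. Its mutant values were above the controls, on 24 and 28 counts against 21 and 21. The log2 fold change was 0.97 (SE 0.42, 95% interval −0.01 to 1.95), with an adjusted p of 0.482 in edgeR's quasi-likelihood test. miR-667-5p had 273 and 338 scaled CPM in the mutants and 217 and 218 in the controls. Its controls were nearly equal and the mutants above them, and the log2 fold change was 0.49 (SE 0.26, adjusted p = 0.574 by edgeR).

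**Figure D3:**
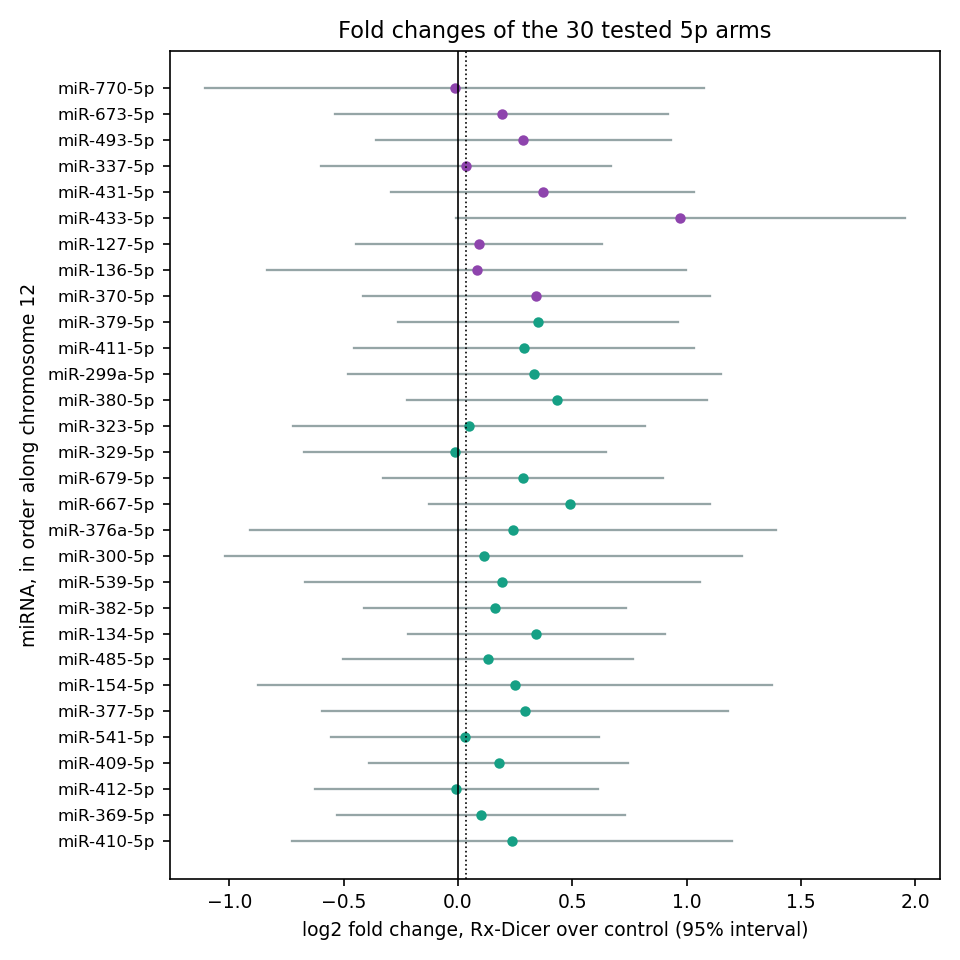
Log2 fold change of Rx-Dicer over control with its 95% interval (edgeR) for the 30 tested 5p arms in order along chromosome 12, with purple points for the proximal group and green points for the Mirg group. The solid line marks 0 and the dotted line the median of all 274 tested miRNAs (0.04), and each of the 30 intervals includes 0.

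The remaining 14 members were under the minimum of 10 counts in 2 libraries and were left out of the test that used it. miR-654-5p and miR-544-5p had 0 counts in all 4 libraries. Taking 3 counts as the limit that a count of 0 allows, their share of counts could be up to 0.000461% and 0.000581% in the mutants and 0.000231% and 0.000265% in the controls. In all, 9 of the 14 had a total of 10 counts or fewer, and the highest count in any library was 15, for miR-543-5p in mutant library 2. A low 5p arm says nothing about the 3p arm of the same hairpin. Members with at least 1 count numbered 38 in each mutant library and 40 in each control. At the depth of the smallest library the expected numbers were 37.7 and 38.0 in the mutants and 37.4 and 37.9 in the controls, so no difference in detection was seen at equal depth.

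Among the other mature miRNAs of the region, 10 of 14 listed names had a row, 6 were tested and 0 passed in edgeR (lowest adjusted p = 0.733), with 0 under 0.05 before adjustment. DESeq2 gave an adjusted p for 2 of the 6, and 0 passed. The most abundant was miR-434-5p, from a further hairpin opposite Rtl1, with 4127 and 3095 scaled CPM in the mutants and 2575 and 4261 in the controls, and its groups overlapped. As with miR-411-5p, control library 1 was the lowest. Of 56 listed 3p arms of the region, 2 had a row in the counts and were tested, miR-299a-3p and miR-299b-3p. Mir299a and Mir299b lie on opposite strands of the same place. The listed miR-299b-5p is contained in miR-299a-5p, as the sequences show.
mmu-miR-299a-5p: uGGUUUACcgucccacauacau
mmu-miR-299b-5p: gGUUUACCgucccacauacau
Most reads of these 2 5p arms cannot be told apart, and their counts were nearly the same. For miR-299a-5p they were 55 and 33 in the mutants and 68 and 42 in the controls. For miR-299b-5p they were 54, 33, 67 and 42 in the same order. The listed miR-299b-3p is likewise contained in miR-299a-3p. Their counts were the same in each library, so the reads of these 3p arms could not be told apart either. As counted under miR-299a, the 3p arm had 10.9 and 9.97 times the counts of the 5p arm in the mutants. In the controls it had 10.4 and 9.05 times. The 3p arm was thus the higher one in each library, and neither arm passed the test (adjusted p = 0.611 for the 3p arm by edgeR).

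Markers of other cells in the dissected tissue were read in the same libraries. Apart from miR-451a the tested markers were 5p arms, and their levels say nothing about the 3p arms of the same hairpins. The 5 mesenchymal miRNAs summed to 11917 and 11348 scaled CPM in the mutants and 4443 and 11072 in the controls, and miR-199a-5p was the most abundant. Control library 1 was low, as it was for miR-379-5p, miR-411-5p and miR-431-5p, and the part of these cells in the member values was not tested. The 3 red-cell miRNAs summed to 7595 and 8504 in the mutants and 5737 and 6362 in the controls, led by miR-486a-5p. Both mutants were above both controls for the sum, for miR-486a-5p and for miR-451a, and the groups overlapped for miR-144-5p. Their part in the result was not tested either. The endothelial miR-126a-5p had 431 and 244 in the mutants and 253 and 403 in the controls.

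The 4 miRNAs of white blood cells, led by miR-155-5p, summed to 492 and 471 scaled CPM in the mutants and 573 and 475 in the controls. They differed in direction, with both mutants above both controls for miR-142a-5p and below both for miR-150-5p. The groups overlapped for miR-155-5p. The 9 neuronal miRNAs, led by miR-7a-5p, summed to 18158 and 11825 in the mutants and 20915 and 19334 in the controls. The 4 Hox-cluster miRNAs of hindbrain and trunk, led by miR-10a-5p, summed to 524 and 564 against 591 and 705. For the neuronal and the Hox-cluster sum both mutants lay below both controls, but not for each member. The groups overlapped for miR-128-1-5p, miR-218-5p and miR-132-5p among the 7 tested neuronal miRNAs, and for miR-10a-5p and miR-196a-5p among the 4 of the Hox clusters. The 5 eye and sensory miRNAs, led by miR-182-5p, summed to 1424 and 14156 in the mutants and 3456 and 7055 in the controls. Mutant library 2 was the highest in this sum. The groups overlapped for miR-182-5p, miR-183-5p and miR-96-5p. For miR-204-5p both mutants lay below both controls, at 88.1 and 81.8 against 135 and 155. The 7 epithelial miRNAs, led by miR-205-5p, summed to 235 and 808 against 201 and 427, with miR-200c-5p, miR-429-5p and miR-203-5p at 0 in all libraries. Mutant library 2 was the highest here too. The 2 forebrain progenitor miRNAs summed to 243207 and 261891 in the mutants and 344000 and 526392 in the controls. Most of this sum was miR-9-5p, for which both mutants were below both controls, whereas the groups overlapped for miR-92b-5p. Of the 32 miRNAs tested on these cell type lists, 0 passed an adjusted p of 0.05 in edgeR, and of the 22 to which DESeq2 gave an adjusted p, 0 passed. In edgeR, 1 neuronal (miR-124-5p), 1 eye and sensory (miR-204-5p) and 1 forebrain progenitor miRNA (miR-9-5p) were under 0.05 before adjustment. Each of these was lower in the mutants. The part of these cells in the member values was not tested.

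For comparison with other imprinted loci, 5 miRNAs of such loci were tested and 0 passed in edgeR, with 0 under 0.05 before adjustment and a median log2 fold change of 0.19. DESeq2 gave an adjusted p for 4 of the 5, and 0 passed. The most abundant was miR-298-5p. The list summed to 12893 and 13517 scaled CPM in the mutants and 15385 and 10742 in the controls, and the mutants lay between the controls.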

How the data were processed

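Libraries were prepared with a small RNA kit from total RNA and sequenced with 75-base single-end reads. The authors counted reads on mature miRNAs with miRDeep2 (mm10 and miRBase version 22; its version is not given in the sources used here), and deposited raw whole-number counts, 1 row for each mature miRNA on each of its precursors. The 1211 rows cover 1059 mature names, of which 65 have several rows, and the row with the highest total was kept. Reads that fit several miRNAs may have been counted on each.

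A minimum of 10 counts in 2 or more libraries left 274 miRNAs, which were tested with edgeR 4.0.16 (limma 3.58.1, R 4.3.3; TMM, genotype as the only factor, Benjamini-Hochberg adjustment, threshold 0.05). The model's common dispersion was 0.0771. Shares have 95% Wilson intervals (scipy 1.17.1, Python 3.11.15), and expected detection at equal depth is hypergeometric. Both this fit and that of DESeq2 1.42.0 were tested on 40 simulated sets, in which 20 of the 274 miRNAs changed 4-fold. edgeR recovered 80.9% of these changes and DESeq2 76.4%. Smaller changes, such as those of the members, were not simulated. The libraries of a genotype differed beyond sampling noise and were used as replicates.

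The rule for named miRNAs took the 12 tested members with the highest mean scaled CPM and every tested member with an unadjusted p under 0.05, of which there were 0. Members and lists were chosen with earlier results of these data known. Alternatives were TMM factors without the members, total counts only, DESeq2's size factors, DESeq2's Wald test, no count minimum, at least 100 counts, the sum over precursor rows, a replicate block, each library left out and, for shares, a total without miR-9-5p. Positions are from GENCODE on GRCm38 and sequences from RefSeq. mRNA libraries were not analysed here.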

Additional observations from a re-analysis of the deposited data

How the results depend on the processing

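Members that passed an adjusted p of 0.05 numbered 0 in each edgeR setting, and 0 of the 20 to which DESeq2 gave an adjusted p. The number of all miRNAs called lower was 7, and it was 4 with DESeq2's size factors, 0 with total counts only, 3 with TMM factors without the members, 11 with DESeq2's Wald test and 14 with no count minimum, which tested 634 miRNAs. The members' median log2 fold change (0.21) was 0.63 with total counts only, 0.28 with TMM factors without the members and 0.055 with no count minimum. In these 3 settings the median of all miRNAs moved as well, to 0.44, 0.11 and −0.14. The difference in the members' share of counts (2.97 percentage points) was 2.01 with the sum over precursor rows, where the shares themselves were 5.36% and 3.35% against 9.39% and 6.42%, and that of the proximal group moved by less than the spread between libraries in each setting. The sum adds rows to the total and none to the members, and the cause of the other shifts was not tested.

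Of 228 member fold changes under other settings with all libraries, 23 had the opposite sign, all of miRNAs that did not pass the test. They were 0.016 for miR-770-5p, 0.032 for miR-329-5p and 0.030 for miR-412-5p with DESeq2's size factors, 0.37 for miR-770-5p, 0.41 for miR-329-5p and 0.39 for miR-412-5p with total counts only, 0.055 for miR-770-5p, 0.060 for miR-329-5p and 0.063 for miR-412-5p with TMM factors without the members, and 0.018 for miR-770-5p, 0.032 for miR-329-5p and 0.029 for miR-412-5p with DESeq2's Wald test. With no count minimum they were −0.13 for miR-337-5p, −0.074 for miR-127-5p, −0.084 for miR-136-5p, −0.11 for miR-323-5p, −0.051 for miR-300-5p, −0.0018 for miR-382-5p, −0.025 for miR-485-5p, −0.13 for miR-541-5p and −0.067 for miR-369-5p. The cause was not tested.

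Under a replicate block (library number added to the model), 0 miRNAs were lower and 0 higher, the members' median was 0.20, and the sign changed to 0.010 for miR-770-5p and 0.012 for miR-329-5p. Same-numbered libraries deviated from their genotype's mean with a correlation of 0.08 over the 274 miRNAs, and the labels do not tie the numbers to a shared litter or day.

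Fits without 1 library assume that the lone library of a genotype varies like the other group. All miRNAs called lower then numbered 0 to 6, with 1 without mutant library 1, 6 without mutant library 2 and 0 without either control. The members' median ran from 0.14 to 0.32 and exceeded that of all miRNAs by 0.16 to 0.28 (0.18 with all libraries), and their excess in share from 2.24 to 3.70 percentage points. Of 120 member fold changes, 25 had the opposite sign, in 15 members, whose ranges were −0.0049 to 0.36 for miR-673-5p, −0.16 to 0.29 for miR-337-5p, −0.14 to 0.30 for miR-136-5p, −0.22 to 0.28 for miR-329-5p, −0.24 to 0.67 for miR-376a-5p, −0.43 to 0.69 for miR-154-5p, −0.14 to 0.26 for miR-541-5p, −0.17 to 0.19 for miR-412-5p, −0.069 to 0.34 for miR-369-5p, −0.38 to 0.55 for miR-770-5p, −0.054 to 0.54 for miR-539-5p, −0.33 to 0.66 for miR-410-5p, −0.26 to 0.63 for miR-300-5p, −0.16 to 0.34 for miR-323-5p and −0.12 to 0.47 for miR-485-5p. Fold changes of the other members given per library kept their sign and ranged from 0.21 to 0.54 for miR-379-5p, 0.28 to 0.40 for miR-134-5p, 0.10 to 0.27 for miR-382-5p, 0.025 to 0.67 for miR-411-5p, 0.10 to 0.30 for miR-409-5p, 0.068 to 0.58 for miR-679-5p, 0.00042 to 0.18 for miR-127-5p, 0.11 to 0.75 for miR-431-5p, 0.66 to 1.25 for miR-433-5p and 0.33 to 0.63 for miR-667-5p. The 14 members under the count minimum entered no fit that used it, and whether depth or level kept them under it was not tested.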
